A study of Mus musculus with 8 samples.

Results

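The knockout-only intergenic peaks are 4174 stretches of open chromatin listed in the retina of a Spata7 mutant mouse, given to no gene by the lists' annotation, and absent from the list of a wild-type mouse. They were picked by 2 measured properties of the deposited lists. The mutant (KO) peak carried neither a promoter nor a distal label, and it overlapped no wild-type (WT) peak by 1 bp or more. They make up 4174 of the 5314 KO intergenic peaks and of 91130 KO peaks in all. The other 1140 KO intergenic peaks overlapped a WT peak and are called shared below. Over KO peaks of any class, 42.3% overlapped no WT peak. Absence from the WT list defines the set, so that share and every comparison with the WT list is a description without a test.

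Single-nucleus ATAC-seq, in which a transposase cuts and tags accessible DNA, was run on 1 retina library per genotype. These were of a Spata7 mutant at 6 months and a C57BL6/J wild type at 7 months, both labelled male. Spata7 encodes a protein of the photoreceptor connecting cilium, and mice without it lose photoreceptors with age. The labels describe the mutants by citation to a published line, with no promoter, Cre driver or other allele. RNA came from nanowell single-cell or single-nucleus libraries of retina labelled male, 1 per genotype at 1, 3 and 6 months, on the C57BL6/J background. The labels' protocol speaks of age-matched animals, but the ATAC libraries differ by a month. No label names a replicate, so genotype cannot be told apart from animal, library or, for ATAC, age and the sex signal described below. The WT 1 month RNA library also differs from the other RNA libraries in that signal.

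An intergenic peak, in these lists, is one given to no gene as promoter or distal. Distal peaks in the lists reached at most 200 kb from their gene and promoter peaks began at most 1000 bp before it. Remote accessible sites of this kind are often enhancers, stretches that bind transcription factors and act on promoters a long way off, and many sit in gene deserts beside genes of neural development and cell adhesion. Others are starts of long noncoding RNAs, and some are repeats or sites where few reads sufficed for a call.

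Several properties of the libraries bear on what follows. The KO list held 91130 peaks over 72918 kb and the WT list 56797 over 50215 kb. The lists carry no height, score or read depth, so how far depth sets the difference in number cannot be read from them. Promoters of rod and cone markers had a peak in both lists, for 8 of 8 rod and 4 of 4 cone genes. Bipolar markers had one for 5 of 5 genes in KO and 2 of 5 in WT, and microglial markers for 2 of 4 in KO and 0 of 4 in WT. Endothelial (0 of 3), pigment epithelial (0 of 3) and non-retinal (0 of 5) markers had none in either list. The part of cell composition in the KO-only peaks was not tested. The WT ATAC library went against its male label. None of its 7 peaks on chromosome Y lay below 90 Mb, and the Y-linked genes Kdm5d, Eif2s3y, Uty and Ddx3y had 0 of 4 promoter peaks there against 4 of 4 in KO. A WT peak at chrX:103483045-103483445 lay over the start of Xist, the RNA that silences an X chromosome in female cells, where the KO list had no peak. The RNA library labelled WT 1 month likewise had 0 CPM (reads of a gene scaled by the total of its library) of these 4 genes and 110 CPM of Xist, against 149 to 256 CPM of the 4 genes in the other 5 libraries. Without chromosomes X and Y the set held 4127 peaks and 78.7% of KO intergenic peaks were KO-only, against 78.5% with them.

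The miR-344 family is a clustered group of microRNAs, short RNAs that silence messenger RNAs through bases 2 to 8, the seed. RefSeq (GRCm38.p6) places 13 of its hairpins within chr7:61683124-62085310, a stretch of 402 kb. Of the 1005 hairpins in the RefSeq table, 3 lay under KO-only intergenic peaks, and these 3 were all from this cluster. Another 3 lay under the 1140 shared intergenic peaks. Mir344d-3 lay in chr7:61726210-61726560, Mir344-2 in chr7:61939967-61940359 and Mir344f in chr7:62046145-62046739, each hairpin whole. Their mature sequences are shown 5′ to 3′, seed in capitals, because they are the only microRNAs of the RefSeq table under these peaks.
mmu-miR-344d-3-5p: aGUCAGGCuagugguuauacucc
mmu-miR-344-5p: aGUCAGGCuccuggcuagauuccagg
mmu-miR-344f-5p: aGUCAGUCuccuggcuggaguc
mmu-miR-344d-3p: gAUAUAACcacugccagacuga
mmu-miR-344-3p: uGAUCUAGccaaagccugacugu
mmu-miR-344f-3p: cUCUAGCCaggaccugacuac
The first pair of 5p products share the seed GUCAGGC, which 6 mature names of the family carry, while miR-344f-5p has GUCAGUC. Each of the 3p products has its own seed among these. RefSeq gives miR-344-5p and miR-344-3p from Mir344-2 and from Mir344 alike. Mir344 and Mir344g lay under peaks shared with WT, and the remaining 8 hairpins under no KO peak. The cluster as a whole held 10 KO peaks, of which 7 were KO-only intergenic and 3 shared, where 78.5% of all KO intergenic peaks were KO-only, and 3 WT peaks. Along the chromosome the 5 hairpins under a peak alternated between KO-only and shared, from Mir344d-3 to Mir344f. Mature microRNAs were not measured in these libraries.

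Other KO-only intergenic peaks lay over the start of a RefSeq transcript. The RefSeq table gives a window of 300 bases around a start, 250 before and 50 after, and 52 such windows touched 51 of the peaks (1.22%). Among shared intergenic peaks 38 of 1140 did so (3.33%). Of the 52 windows, 48 belonged to long noncoding RNAs (lncRNAs) and 4 to coding genes. Of the 41 windows under shared intergenic peaks, 40 belonged to lncRNAs and 1 to a coding gene. Over all 32851 windows, 11588 belonged to lncRNAs. Among the 52, 19 windows of 18 genes lay wholly inside a peak. Of the chromosome 12 starts, 3 share a long run of bases and another shares a shorter run with 1 of them. These 4 are shown because starts with shared sequence in 1 region were listed in KO and not in WT. Capitals mark the longest run of bases, 50, common to Gm5784, Gm38538 and 2410018L13Rik. In 1700030C10Rik, which lacks it, they mark the 25 bases it shares with Gm38538.
Gm5784: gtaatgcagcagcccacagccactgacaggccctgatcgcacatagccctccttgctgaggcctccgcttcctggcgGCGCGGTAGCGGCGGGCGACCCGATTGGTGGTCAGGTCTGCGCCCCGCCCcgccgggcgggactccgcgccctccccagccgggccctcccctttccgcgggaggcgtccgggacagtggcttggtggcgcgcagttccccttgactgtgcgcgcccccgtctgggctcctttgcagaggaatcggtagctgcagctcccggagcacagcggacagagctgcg
Gm38538: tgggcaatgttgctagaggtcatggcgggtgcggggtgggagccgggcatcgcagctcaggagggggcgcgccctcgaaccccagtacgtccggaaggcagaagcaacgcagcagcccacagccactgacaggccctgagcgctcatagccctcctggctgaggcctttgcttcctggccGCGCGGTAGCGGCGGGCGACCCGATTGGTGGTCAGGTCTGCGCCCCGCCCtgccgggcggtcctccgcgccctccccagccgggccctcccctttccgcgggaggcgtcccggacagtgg
2410018L13Rik: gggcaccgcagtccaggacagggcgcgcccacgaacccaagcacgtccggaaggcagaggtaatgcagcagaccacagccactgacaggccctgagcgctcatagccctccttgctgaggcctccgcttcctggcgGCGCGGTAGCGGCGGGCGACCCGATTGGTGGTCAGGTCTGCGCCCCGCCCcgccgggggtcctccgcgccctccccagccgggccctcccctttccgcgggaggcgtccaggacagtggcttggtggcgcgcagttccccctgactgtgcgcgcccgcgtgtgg
1700030C10Rik: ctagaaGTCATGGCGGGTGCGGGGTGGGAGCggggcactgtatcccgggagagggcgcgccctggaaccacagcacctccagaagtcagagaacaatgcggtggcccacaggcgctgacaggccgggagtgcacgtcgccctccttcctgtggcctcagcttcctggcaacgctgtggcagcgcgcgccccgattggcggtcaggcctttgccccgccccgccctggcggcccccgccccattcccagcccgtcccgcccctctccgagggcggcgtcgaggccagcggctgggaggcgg
Gm5784 and 2410018L13Rik share a longer run, of 93 bases. No other window in the RefSeq table, of 32851, held the run of 50. Their GC content was 71.3 to 72.7%, against a median of 52.7% over all windows and 49.7% over the 52. The peaks at these starts were chr12:19387709-19388040, chr12:20815522-20816079, chr12:22745537-22746034 and chr12:23009976-23010679. From the first to the last of them, over 3.62 Mb, the lists held 16 KO-only intergenic and 0 shared intergenic peaks among 69 KO and 19 WT peaks. Reads from shared sequence can be placed at more than 1 site, and the part of read placement was not tested. Of 2410018L13Rik the WT libraries held 3.06, 16.6 and 10.3 CPM at 1, 3 and 6 months and the KO libraries 4.37, 3.27 and 3.01, so the groups overlapped. Of 1700030C10Rik they held 2.10, 0 and 1.25 CPM in WT and 0, 0 and 0.0960 in KO, and of Gm5784 0.499, 0 and 0.0417 CPM in WT and 0, 0.218 and 0.280 in KO, both with overlap.

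Motifs of retinal and stress-related factors were searched on both strands of the RefSeq windows, the sequence used here for the peaks. The AP-1 motif TGANTCA, bound by FOS and JUN proteins, was present in 8 of the 52 windows under the peaks (15.4%) and in 7.81% of all windows. The CRX motif GGATTA, read by a photoreceptor homeodomain factor, was present in 3 (5.77%, against 7.06%), and the MAF and NRL motif TGCTGA in 16 (30.8%, against 19.5%). The SOX motif ACAAT was present in 26 (50%, against 31%). Motifs of MEF2 and CTCF, searched as fixed patterns of letters that are not printed here, were present in 0 of the 52. Each was in only 183 of all 32851 windows (0.557%), so 0 of 52 cannot show that they are rarer under the peaks. The E-box CAGCTG was present in 7 (13.5%, against 16.3%), the E-box CAGATG in 12 (23.1%, against 17.2%), the NFI motif TTGGC in 22 (42.3%, against 46.7%) and the nuclear receptor motif AGGTCA in 13 (25%, against 16.3%). Under the 41 windows of shared intergenic peaks AP-1 was present in 5 (12.2%), CRX in 5 (12.2%), SOX in 19 (46.3%), MAF and NRL in 7 (17.1%), CAGCTG in 13 (31.7%), CAGATG in 6 (14.6%), NFI in 23 (56.1%) and the nuclear receptor motif in 7 (17.1%). Some of the 52 windows only touch a peak. Of the 19 wholly inside one, AP-1 was present in 2 (10.5%), MAF and NRL in 8 (42.1%), SOX in 11 (57.9%), CRX in 1 (5.26%), CAGCTG in 3 (15.8%), CAGATG in 6 (31.6%), NFI in 10 (52.6%) and the nuclear receptor motif in 3 (15.8%). The share with NFI thus lay above that of all windows here and below it over the 52, and the nuclear receptor share the other way round. A match is a stretch of letters, not measured binding, and some motifs can overlap. The 52 windows are mainly lncRNA starts, with a median GC of 49.7%. All windows, of which 11588 of 32851 are lncRNA starts, had a median of 52.7%. No share over lncRNA starts alone or at like GC was computed, so the part of either was not tested. The start of Gm33045 in chr13:110626978-110628434, which lay 228 kb from any WT peak, and that of LOC115489933 in chr4:87570442-87570979 held AP-1 matches. The start of Gm39767 in chr2:21963929-21964466 held a CRX match and an E-box (CAGCTG, the motif of basic helix-loop-helix factors). These 3 windows are printed with the AP-1, CRX and CAGCTG matches in capitals, as examples of starts wholly inside a peak.
Gm33045: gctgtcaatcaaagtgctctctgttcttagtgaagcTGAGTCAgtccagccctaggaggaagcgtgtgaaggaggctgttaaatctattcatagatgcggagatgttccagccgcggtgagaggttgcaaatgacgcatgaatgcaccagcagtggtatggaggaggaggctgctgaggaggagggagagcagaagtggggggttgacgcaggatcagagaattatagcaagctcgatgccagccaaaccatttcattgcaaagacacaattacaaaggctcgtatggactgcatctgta
LOC115489933: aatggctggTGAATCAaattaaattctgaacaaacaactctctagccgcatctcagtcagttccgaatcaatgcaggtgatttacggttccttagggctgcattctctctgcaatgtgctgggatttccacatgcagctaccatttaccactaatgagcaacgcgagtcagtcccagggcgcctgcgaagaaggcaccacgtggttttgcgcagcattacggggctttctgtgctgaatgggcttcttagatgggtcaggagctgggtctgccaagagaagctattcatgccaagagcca
Gm39767: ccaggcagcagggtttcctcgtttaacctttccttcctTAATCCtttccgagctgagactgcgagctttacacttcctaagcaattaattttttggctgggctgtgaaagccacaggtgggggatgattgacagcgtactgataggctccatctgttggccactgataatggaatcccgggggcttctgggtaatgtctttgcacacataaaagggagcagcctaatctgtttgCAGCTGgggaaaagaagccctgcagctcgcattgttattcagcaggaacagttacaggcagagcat

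The KO-only share was highest in the intergenic class. It was 78.5% of KO intergenic peaks (95% exact binomial interval 77.4 to 79.6), against 45.9% of distal and 10.3% of promoter peaks. These intervals, here and below, cover counting error only. In the other direction, 38 of the 1190 WT intergenic peaks (3.19%) overlapped no KO peak. Intergenic peaks made up 5.83% of the KO list and 2.10% of the WT list. The KO-only intergenic peaks were 10.8% of the 38578 KO-only peaks of all classes, and distal ones 85.5%. Close to the threshold of the rule, the members nearest to a WT peak lay 164, 531 and 557 bp from it, and 24 lay within 1000 bp. The shared peaks with the least overlap had 1 bp covered, and 89 had under 100 bp. WT peaks covered a median of 58.7% of a shared intergenic peak, and under 50% of 444 of them.

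The KO-only intergenic peaks were short. Their median length was 368 bp (quartiles 246 and 473), against 657 bp for shared intergenic peaks and 348 bp for KO-only distal peaks. At the short end 356 were under 100 bp (8.53%), and at the long end 67 reached 1000 bp (1.61%), where 20.6% of shared intergenic peaks did. The shortest spanned 1 bp and the longest 1908 bp. No 2 peaks of either list lay closer than 501 bp, so a peak's length also reflects how neighbouring calls were joined. The KO-only share fell with length, from each length class to the next, for intergenic and for distal peaks. Of intergenic peaks under 100 bp 99.4% were KO-only, of those from 400 to under 500 bp 82.9%, and of those of 1000 bp or longer 22.2%. At the same lengths distal peaks were KO-only in 87.6, 45.2 and 8.10% of cases.

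**Figure D1:**
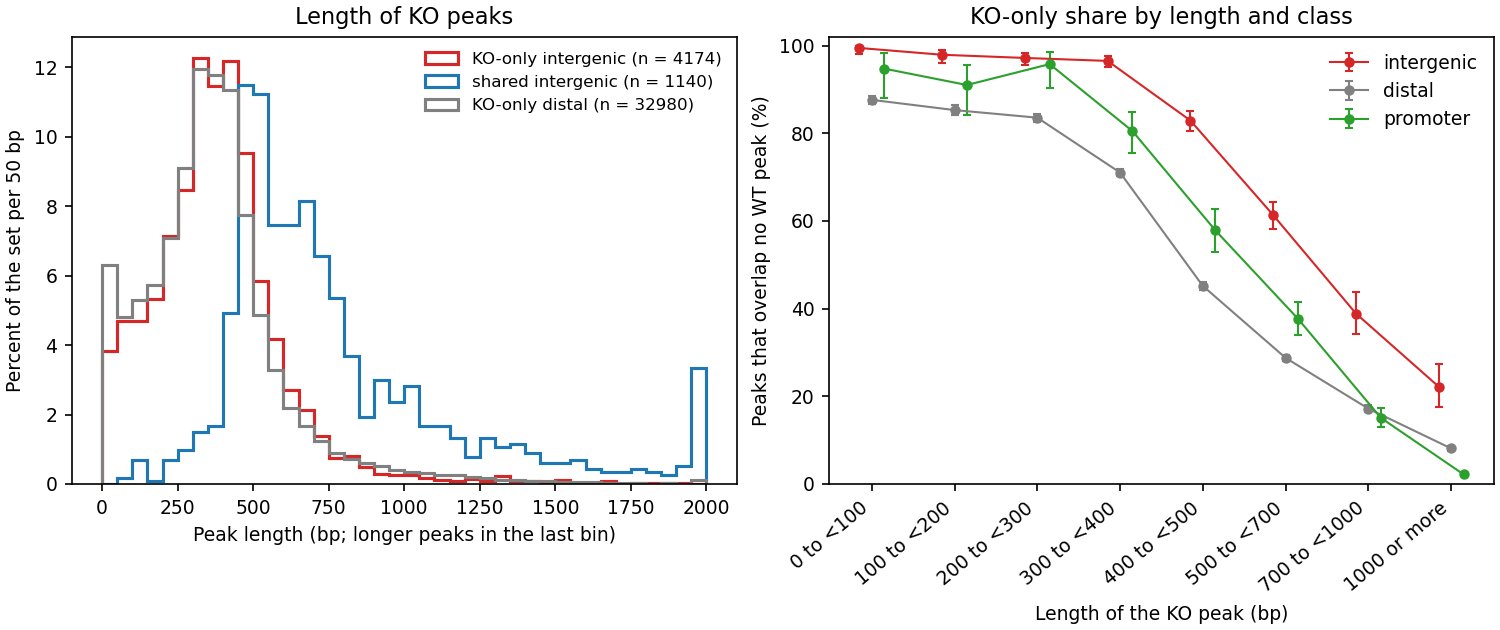
Left, length in bp of KO-only intergenic, shared intergenic and KO-only distal peaks of the KO list, as percent of each set per 50 bp. Right, percent of KO peaks that overlap no WT peak by length class, with 95% exact binomial intervals; intergenic peaks run from 99.4% under 100 bp to 22.2% at 1000 bp or more and lie above distal peaks in every class.

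The longest member, chr13:116710764-116712671, lay 138 kb from Parp8 and 1000 bp from the next KO peak, and the seventh longest, chr13:116705339-116707021 (1683 bp), lay in the same place, 196 kb from any WT peak. The next longest, chr10:17299590-17301476 (1887 bp), lay 422 kb from Cited2, a transcriptional coregulator. Map3k7, which encodes the kinase TAK1, was the nearest coding gene to 2 of the 10 longest, chr4:31454783-31456611 (1829 bp, 507 kb away) and chr4:31640982-31642669 (1688 bp, 321 kb away). Celf4, an RNA-binding protein of neurons, lay 734 kb from chr18:26488629-26490389 (1761 bp). Snx16 lay 245 kb from chr3:10685027-10686717 (1691 bp), and Rps6kc1 90.3 kb from chr1:190680957-190682587 (1631 bp). The last of the 10 were chr3:149436669-149438199 (1531 bp), inside the lncRNAs Gm30382 and A630039O03Rik and 7034 bp from a WT peak, and chr18:79843928-79845442 (1515 bp), 201 kb from the promoter peak of Pard6g. None of the 10 overlapped a coding gene. Of the shortest, a single base at chr1:193572768, and of the member nearest to a WT peak, chr11:63691105-63691140 (36 bp), the lists give nothing but position.

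Every chromosome held members, at unequal density. Over the span the lists cover, the 19 autosomes held 0.937 to 2.85 per Mb, with a median of 1.79. Chromosome 18 was the densest with 250 members (2.85 per Mb), then chromosome 12 with 310 (2.65) and chromosome 3 with 357 (2.28). At the other end, chromosome 17 was the sparsest autosome with 86 (0.937), X held 45 (0.271) and Y held 2 (0.0221). Shared intergenic peaks were densest on the same chromosomes 18 (0.868 per Mb) and 12 (0.726), while all KO peaks together were densest on chromosome 11 (50.5 per Mb), which held only 1.22 members per Mb. Among autosomes the KO-only share of intergenic peaks ran from 74.0% on chromosome 7 (interval 68.2 to 79.1) to 86.1% on chromosome 19 (75.9 to 93.1). No difference between chromosomes was tested. On X it was 67.2% (54.6 to 78.2), beside the difference in X and Y signal between the libraries. The members on Y, chrY:258948-259568 and chrY:11858045-11858355, lay in the part of Y without any WT peak. The first was the member farthest from a WT peak, and the second the farthest from another KO peak, at 9429318 bp.

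**Figure D2:**
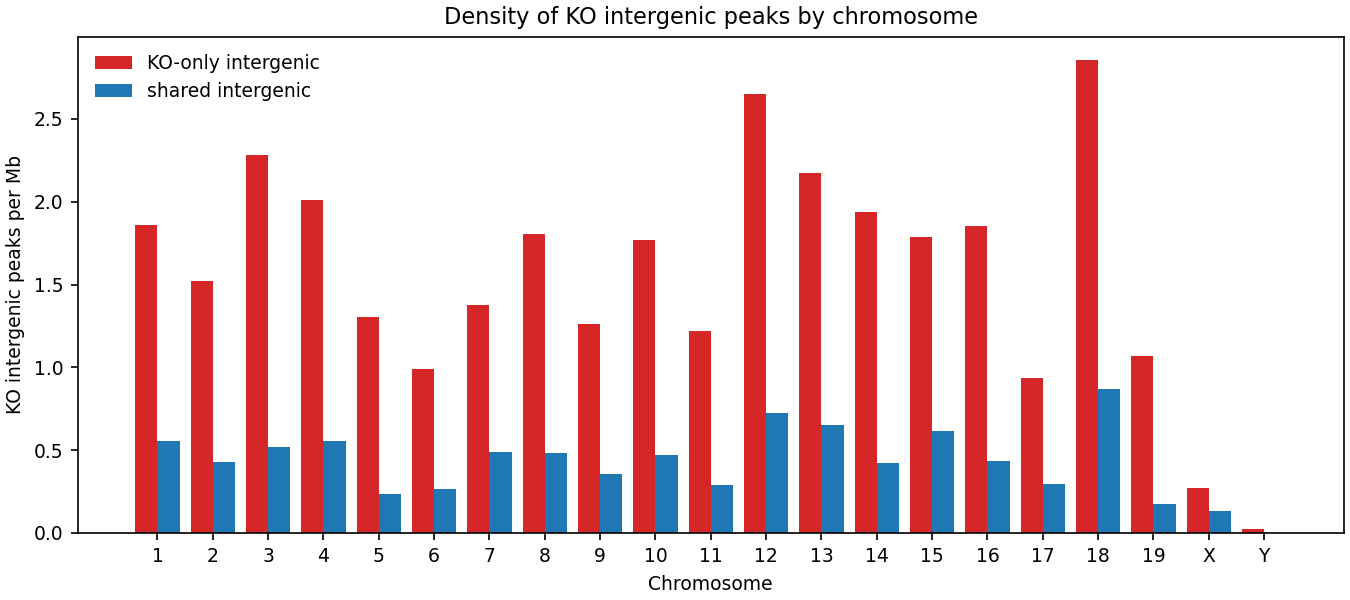
KO intergenic peaks per Mb of the span the lists cover, by chromosome, for KO-only and shared peaks. KO-only density is highest on chromosome 18 (2.85 per Mb) and lowest on X (0.271) and Y (0.0221).

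Members lay together along the chromosomes. Of 2667 windows of 1 Mb, 1027 held a member (38.5%) and 1640 held none, and 224 windows (8.40%) held 50% of all members. At least 10 members lay in each of 83 windows, 1046 members in all (25.1%). Another member lay within 50 kb, midpoint to midpoint, for 61.7%, within 10 kb for 24.7% and within 200 kb for 89.6%. Shared intergenic peaks, fewer in number, had another of their own kind within 50 kb in 53.4%, within 10 kb in 28.9% and within 200 kb in 70.4% of cases. Runs of members with gaps under 50 kb between neighbours numbered 876 and held 2585 members (61.9%), the other 1589 lying alone. The class holds only peaks that the lists give to no gene, which confines where members can lie.

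Of the 10 densest windows, 3 held no RefSeq coding gene. The first, chr18:55000001-56000000, held 26 members, 9 shared intergenic and 13 WT peaks, between Zfp608, a zinc finger protein, and Gramd3. The window before it, chr18:54000001-55000000, which holds Zfp608, had 20. Windows with 20 members lay between the adhesion receptor genes Adgrl2 and Adgrl4 (chr3:149000001-150000000) and over part of Tenm3 (chr8:49000001-50000000), where 20 of 21 KO peaks were members and WT had 1 peak. Chr10:98000001-99000000 held 19 by Atp2b1, a plasma membrane calcium pump, with 12 shared. The sixth and seventh, with 18 each, held the largest runs. Chr12:29027959-29280640 (253 kb) lay between Eipr1 and Myt1l, a neuronal transcription factor, with 18 members among 20 KO and 2 WT peaks. Chr14:24743334-24972796 (229 kb) lay between Rps24, a ribosomal protein gene, and Zmiz1, with 18 among 22 KO and 4 WT peaks. The last 3, with 17 each, lay between Nr5a2 and Ptprc (chr1:137000001-138000000), by Vstm2b (chr7:40000001-41000000, with 0 shared) and by Kif2a and Zswim6 (chr13:107000001-108000000, with 13 shared). Together the 10 windows held 192 members (4.60%).

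**Figure D3:**
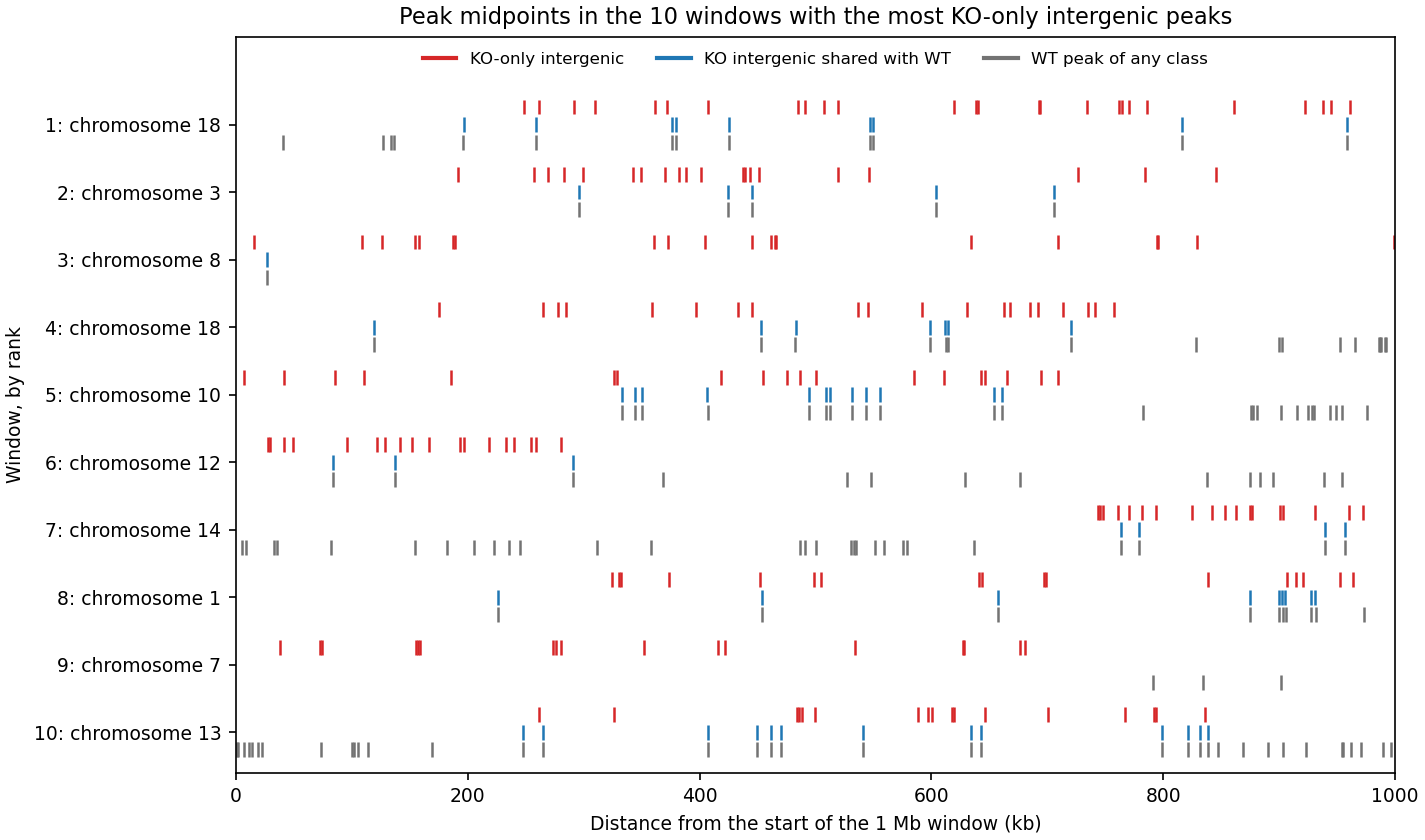
Midpoints of KO-only intergenic, shared intergenic and WT peaks in the 10 windows of 1 Mb with the most members, by distance in kb from the window's start. Members spread over the first window (26) and over the third, which covers part of Tenm3 (20), and fill 253 kb at the start of the sixth and 229 kb near the end of the seventh.

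The nearest KO peak of any class was another member for 3103 of 4174 (74.3%, median gap 21.6 kb). It was a shared intergenic peak for 674 (16.1%, 13.2 kb) and a KO-only distal one for 305 (7.31%, 63.4 kb). The nearest peak was intergenic for 3777 members, so the 3103 are to be set against these. Members are 78.5% of KO intergenic peaks. For shared intergenic peaks the nearest KO peak was intergenic in 91.8% of cases, as it was for 90.5% of members, and a KO-only peak of any class in 63.2%. The median gap to any other KO peak was 22.5 kb, against 10.1 kb for shared intergenic and 5.20 kb for KO-only distal peaks. WT peaks were farther, at a median of 147 kb, and 27% of members had one within 50 kb. KO-only distal peaks had a WT peak at a median of 11.5 kb. A KO promoter peak lay at a median of 403 kb (quartiles 281 and 604), a distance that the class keeps above about 200 kb. Near the mutated gene itself, Spata7 at chr12:98628129-98669819, the closest member lay 451 kb away, and 12 lay within 1 Mb on either side (5.88 per Mb), beside 3 shared intergenic peaks. Within 5 Mb there were 23 (2.29 per Mb) and within 10 Mb 56 (2.79 per Mb), where the chromosome had 2.65.

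**Figure D4:**
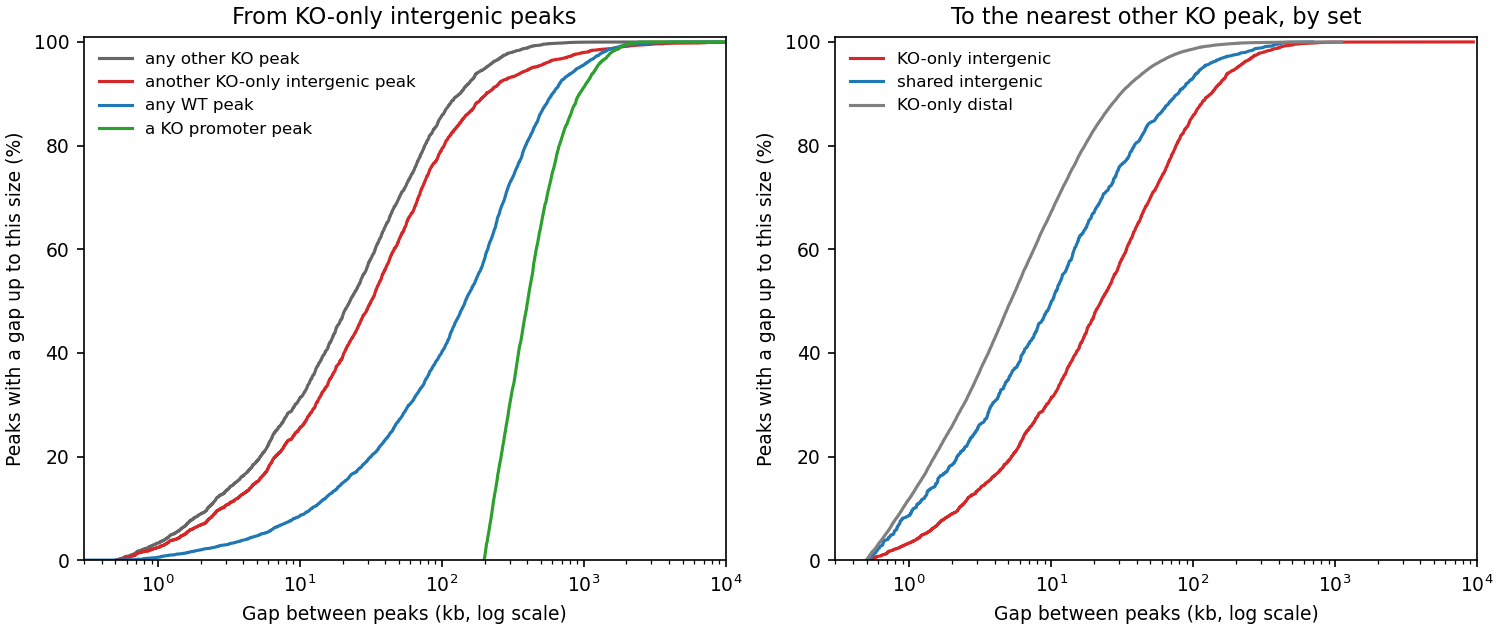
Cumulative percent of peaks by the gap in kb (log scale) to the nearest peak of a kind. Left, members have other members near (median 31.8 kb), WT peaks farther off (147 kb) and KO promoter peaks at 403 kb; right, members lie farther from the next KO peak than shared intergenic and KO-only distal peaks do.

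RefSeq gene spans cover sites that the lists label intergenic, also in genes the lists name, such as Tenm3. By RefSeq, 851 members (20.4%) lay inside a gene, of which 684 (16.4%) in an lncRNA and 152 (3.64%) in 38 coding genes. Of shared intergenic peaks 29.4% lay in a gene and 23.9% in an lncRNA. The nearest coding gene was a median of 288 kb away for members and 260 kb for shared peaks, and 5.53% of members against 1.58% of shared peaks lay over 1 Mb from one. Among the coding hosts, Tenm3, a teneurin that pairs cells across synapses, held 19, with 57 KO and 5 WT peaks over its 1297 kb. Robo2, an axon guidance receptor, held 15 (36 KO, 7 WT peaks) and Ptprd, a synaptic receptor phosphatase, 13 (60 KO, 10 WT). Adamtsl1 and B3galt1 held 9 each, and Zfp536 held 8 beside 18 shared. Among lncRNAs Gm30382, in the window by Adgrl2, held 14, Gm32647 9 and Gm13481, Gm30340 and Gm33228 8 each.

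By the nearest KO promoter peak, the members belonged to 1010 genes, 7.85% of the 12860 genes with such a peak. For 800 of them (79.2%) the WT list also had a promoter peak. Tenm3 came first with 35 members, 390 to 2401 kb from its promoter peak. Pik3c3, a lipid kinase of autophagy, and Zfp608 had 30 each, and Celf4 and Adgrl2 29 each, the last without a WT promoter peak. Cited2 had 23, Map3k7 20, Atp2b1 19 and the galactosyltransferase gene B3galt2 19. Fam19a5, a secreted brain protein, and Rps24 had 18, Gramd3 and Sel1l, of protein quality control in the endoplasmic reticulum, 17, and Tbl1xr1, of a corepressor complex, 16. Sox9, a transcription factor of Müller glia, had 16, from 208 to 643 kb away, in the gene desert that flanks it.

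Grouped by role, none of the 20 phototransduction genes with a KO promoter peak was the nearest promoter gene of a member, nor of a shared intergenic peak. Of all genes with a KO promoter peak 7.85% were nearest to a member. Adhesion and synapse organizers were 52 of the 1010 genes (5.15%, 371 members), against 0.832% of all genes with a KO promoter peak. Among them were the cadherins Cdh8 with 16 members and Cdh20 and Cdh11 with 14, the protocadherins Pcdh20 and Pcdh7 with 13, and the ephrin receptors Epha7 (14) and Epha4 (11). Developmental transcription factors were 34 (3.37%, 158 members) against 0.863%, with Nr2f2 at 13, Nr2f1 at 12, Sox11 at 11, Sox2 at 9 and Sox4 and Sox6 at 8. Of the 502 nearest genes of shared intergenic peaks 29 were of adhesion (5.78%) and 13 developmental factors (2.59%), and no difference from them was tested.

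RNA was not used to choose the peaks and allowed a test, though one of little power, as given below. The question was whether genes next to them differ in RNA between genotypes. Reads were summed over all cells of each library, 12356586 to 182310499 per library, so a change in a cell type's number and in RNA per cell cannot be told apart. Genotype was tested with age as a covariate by edgeR's quasi-likelihood test with Benjamini-Hochberg adjustment. Of 17339 genes, 3 passed at 0.05 (0.0173%), C4b, Edn2 and Serpina3n, all higher in KO and none a nearest promoter gene of a member. The WT and KO libraries did not overlap in CPM for 12.5% of all 17339 genes (1715 with all KO values above WT, 459 below) and for 112 of the 904 tested nearest promoter genes of members (12.4%), so a gene without overlap below is not singled out by that alone. Spata7 itself was at 26.1, 20.2 and 32.2 CPM in WT and 4.07, 1.38 and 3.58 in KO, with no overlap, and did not pass (log2 change −3.37 ± 0.68 SE, adjusted p = 0.908 by edgeR and 1.85e-07 by DESeq2). Of those 904 nearest promoter genes 0 passed. On simulated data at the fitted dispersion of 0.731, edgeR recovered 0% of 200 genes changed by a log2 of 3. Counts of 0 passing by edgeR, here and below, therefore cannot show that these genes do not differ. At an unadjusted p under 0.05 there were 45 (4.98%), 29 higher and 16 lower, where 4.02% of all genes did so. The median log2 change was 0.16 over the 904 and 0.17 over all genes. Of the coding genes that hold members, 32 were tested by edgeR and 0 passed, with 0 at an unadjusted p under 0.05. DESeq2 tested 33, of which 0 passed and 1 had an unadjusted p under 0.05.

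DESeq2 passed 279 of 17851 genes (1.56%), and 17 of 909 nearest promoter genes (1.87%), 12 higher and 5 lower. Slc4a3, an anion exchanger gene of the retina with 15 members nearest to it, was at 44.7, 64.3 and 80.7 CPM in WT at 1, 3 and 6 months and at 13.9, 23.8 and 37 in KO. All KO values lay below all WT values (log2 change −1.56 ± 0.37 SE; adjusted p = 0.989 by edgeR and 0.00546 by DESeq2, and 0.00546 to 1 over the alternatives). Agtpbp1, a deglutamylase whose loss in mice costs photoreceptors, has 1 member and was at 85.1, 93.4 and 91.5 CPM in WT and 338, 205 and 181 in KO (log2 change 1.22 ± 0.27 SE; adjusted p = 0.989 by edgeR, 0.0186 by DESeq2, and 0.0186 to 1 over the alternatives). Dleu7 (2 members) was at 20.8, 38.4 and 16.9 CPM in WT and 2.90, 7.98 and 1.56 in KO, and Scg2, a secretogranin (2 members), at 949, 1219 and 1529 in WT and 377, 809 and 681 in KO. Slc4a3, Agtpbp1, Dleu7 and Scg2 are all among the 5 genes of smallest unadjusted p by edgeR, chosen for their difference. Dleu7 and Scg2 lay lower in KO at each age, at an edgeR adjusted p of 0.989. By DESeq2 the adjusted p was 4.24e-06 for Dleu7 and 0.00662 for Scg2, and the highest over the alternatives was 1 for each. Mef2c (5 members), the last of the 5 smallest unadjusted p-values, was at 245, 344 and 463 CPM in WT and 209, 179 and 251 in KO, with overlap, and passed neither test.

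None of the 15 genes with the most members passed either test, and 3 of them had groups without overlap, beside the 12.4% of all nearest promoter genes. Sox9 was at 25.4, 28.5 and 7.80 CPM in WT and 50.8, 63.9 and 30.4 in KO. The KO values lay above the WT values at each age and without overlap (log2 change 1.23 ± 0.44 SE; edgeR adjusted p = 0.989; 0.150 to 1 over the alternatives). Sox2, a factor of neural progenitors and glia with 9 members, was at 34.5, 13.4 and 21.5 CPM in WT and 55.0, 60.7 and 38.4 in KO, and Epha7 at 28.4, 25 and 50.2 in WT and 57.0, 58.1 and 52.1 in KO. For both the groups did not overlap, and neither passed (edgeR adjusted p = 0.989 each). Both were picked from the lists by role after their values were seen, and groups overlapped for others there, such as Cdh8, Nr2f2 and Pcdh20. Tenm3 was at 24.4, 19.7 and 27.8 CPM in WT and 15.6, 18.5 and 13.1 in KO, lower at each age without overlap (log2 change −0.76 ± 0.53 SE; edgeR adjusted p = 0.989). Zfp608 was at 29, 40.5 and 47.2 in WT and 55.9, 56.1 and 54.4 in KO, higher at each age without overlap (log2 change 0.40 ± 0.34 SE; edgeR adjusted p = 0.989). Adgrl2 was at 27.3, 15.9 and 41.1 in WT and 19.1, 64.1 and 28.3 in KO, and Rps24 at 229, 183 and 321 in WT and 242, 187 and 399 in KO, both with overlap. Among the host genes, Robo2 was at 32.4, 37 and 36.2 CPM in WT and 30.4, 51.6 and 44.2 in KO, and Ptprd at 117, 307 and 306 in WT and 173, 293 and 185 in KO, again with overlap.

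**Figure D5:**
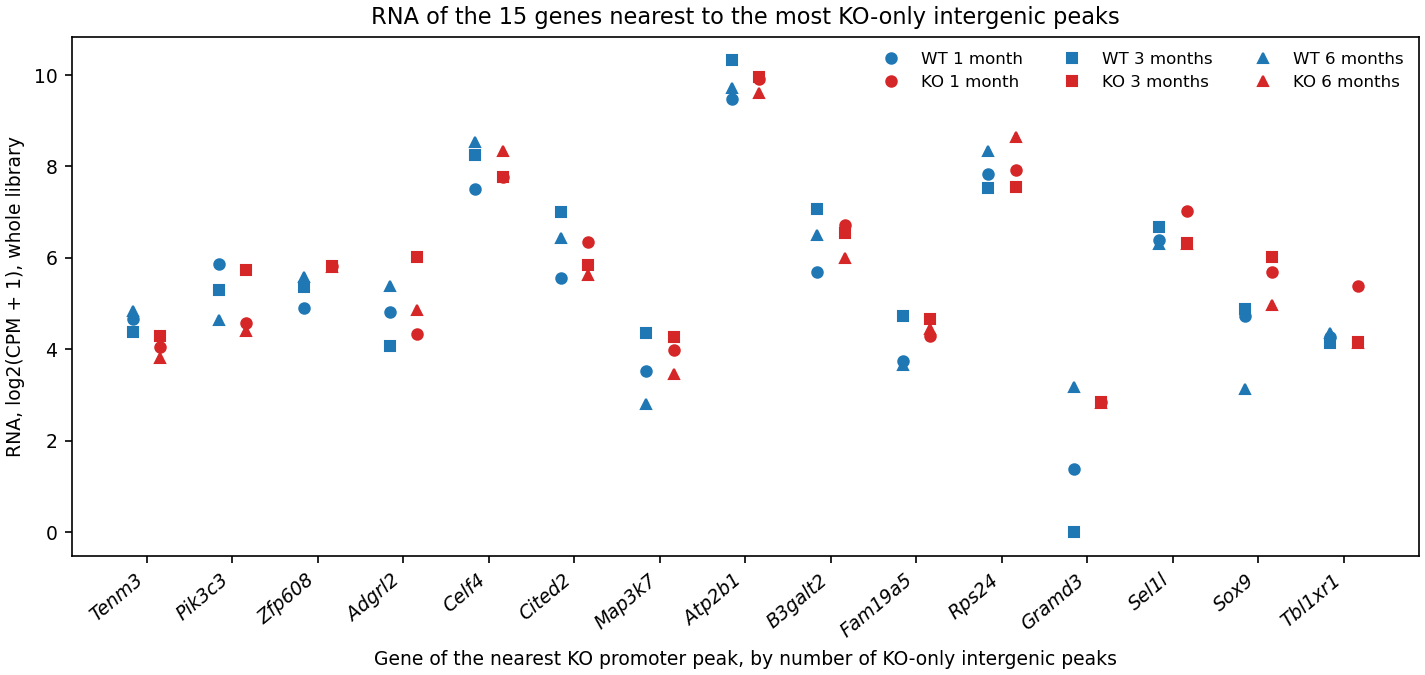
RNA as log2(CPM + 1) of the 15 genes nearest to the most members, 1 point per library, WT and KO at 1, 3 and 6 months. Groups do not overlap for Tenm3, Zfp608 and Sox9, as for 12.5% of all genes tested, and none of the 15 passed the test across all genes.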

How the data were processed

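Peak lists were made by the authors with Cell Ranger ATAC 1.1.0 on mm10, per the submitters' processing notes, 1 list per library. Their classes were read from the deposited peak_type field. RNA counts per gene and well were deposited by the authors as whole reads; the notes name CASAVA, TopHat2, HTSeq and Seurat. From the lists, overlaps (1 bp), gaps, 1 Mb windows and runs (50 kb) were computed in Python 3.11.15 (pandas 2.3.3, SciPy 1.17.1). RNA counts were summed per library (216 to 877 wells) and tested with edgeR 4.0.16 (age and genotype, TMM, filterByExpr) and DESeq2 1.42.0, both on counts of 43628 IDs, of which 42461 had a symbol. On simulated data for this comparison (17339 genes, 200 changed by a log2 of 3), edgeR recovered 97% at a dispersion of 0.05 and 0% at the fitted 0.731. Intervals are 95% exact binomial. The SE beside a log2 change was derived from the edgeR test, as the absolute change divided by the square root of its F statistic. RefSeq spans and sequences are of GRCm38.p6. No genome was used, so motifs planned for the peaks' middles were searched in promoter windows only, and that table holds none on chromosome 18. Members, lists and tests were chosen with earlier results of these data known. Named were the 10 longest members, the 10 densest windows, the 3 densest and sparsest chromosomes, extremes of distance, the largest run, the 15 genes nearest to most members, the nearest genes past the RNA threshold and phototransduction genes. The other genes of the fixed lists, the hosts, the sequences and the 5 nearest genes of smallest p were named after their values were seen.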

Additional observations from a re-analysis of the deposited data

How the results depend on the processing

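Counting a KO peak as shared only when WT peaks cover 50% of it gave 4618 members, within 1.5 times the 4174. It moved the KO-only share to 86.9%, the median length to 390 bp, the share with another member within 50 kb to 65.6% and the median distance to a WT peak to 119 kb. Limiting both lists to peaks of 500 bp or longer gave 1435 KO-only peaks, 853 of them members and 582 shared peaks whose WT partner was shorter, with a KO-only share of 82.5%, a median length of 627 bp and 41% with another within 50 kb. The median distances were then 53.3 kb to another KO peak, 298 kb to a WT peak and 386 kb to a KO promoter peak. The clustering share was 24.7% with a window of 10 kb and 89.6% with 200 kb. Requiring no WT peak within 1000 bp, or autosomes only, moved none of the 6 peak values that have an interval beyond it, and gave 4150 and 4127 members. For RNA, the 3 genes called became 279 with DESeq2, 5 with no filter on low counts, 7 without 1 month and 17 without 6 months, and stayed at 3 with RLE scaling and without 3 months. The 0 nearest promoter genes called became 17 with DESeq2 and stayed 0 with the promoter peak on each side. The cause of these shifts was not tested. No paired analysis was possible because the labels carry no replicate numbers, beyond the RNA fit's own pairing of KO and WT by age. The depth of the ATAC lists is unknown, and a peak missing from the WT list may lie under its calling limit.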
